A study of Mus musculus with 8 samples.

Results

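A set of 9 red-cell lineage genes was followed in whole mouse liver before and after birth, out of 22059 genes with a read count. They were chosen by name: the transcription factors Gata1, Klf1, Tal1 and Nfe2, the erythropoietin receptor Epor, and the red-cell membrane genes Slc4a1, Ank1, Epb4.2 (now Epb42) and Rhag, and all 9 rows were found in each of the 8 samples. The samples were livers of wild-type mice of the inbred strain FVB (FVB/NJ in the study's methods) at embryonic day 18 (E18), postnatal day 14 (P14), postnatal day 28 (P28) and in adult animals of 3 months, with 2 samples at each stage. No animal carried a transgene, a deletion or a treatment. Poly(A)-selected RNA was sequenced as read pairs of 100 bp. The study describes the samples of a stage as biological duplicates, whereas the labels do not name the animals or litters, so p-values measure the spread between these samples.

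The mouse liver is a major site of red-cell production before birth, and this role passes to the bone marrow and spleen around birth. Erythropoietin binds its receptor on erythroid progenitors and keeps them alive and dividing. Gata1, which binds GATA motifs, Tal1, which acts in complexes at E-boxes and GATA motifs, and Klf1, which binds CACCC motifs, switch on the globin, heme and membrane genes of the maturing red cell. Nfe2 is the erythroid and megakaryocytic subunit of a factor that acts at the globin locus and in platelet formation. The membrane genes make a scaffold: band 3 (Slc4a1) exchanges chloride for bicarbonate, ankyrin (Ank1) ties it to the spectrin skeleton, protein 4.2 (Epb4.2) strengthens this link, and the Rh-associated glycoprotein (Rhag) belongs to the Rh complex beside it.

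The samples held 68154675 to 106055723 reads on genes, so that 3 reads, taken as the smallest value this depth can show, stood for 0.0216 to 0.0516 counts per 1000000 reads (CPM) after TMM scaling. TMM is the scaling of edgeR, a package for count data, and rests on most genes not changing. The hepatocyte markers Alb, Apoa1, Ttr, Serpina1a, Cps1 and Tat summed to between 33225 and 94654 RPKM (reads scaled to transcript length in kilobases and to 1000000 mapped reads) over the 8 samples. This sum was high throughout, but not each marker was. Alb was the most abundant, with means of 27514 RPKM at E18 and 22579 in adult. Serpina1a was low at every stage, with means of 0.681 RPKM at E18 and 3.48 in adult, and Tat was at 0.296 RPKM at E18. The sum was lowest at E18. RPKM values are without TMM scaling and log2 fold changes are after it, so folds between RPKM values differ from the log2 fold changes beside them. TMM factors were 1.60 and 1.54 in the E18 samples and 0.854 and 0.888 in the adult samples. Counting intervals below are 95% exact intervals and cover counting error only.

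All 9 erythroid genes were high at E18 and fell between E18 and adult by over 3-fold with a false discovery rate (FDR) below 0.1, thresholds taken from the study. Among all 17081 genes tested, 23.8% were called lower (4061 genes) and 16.8% higher (2863 genes) in this comparison, and the median log2 fold change was -0.11 over all genes and -11.82 over the 9. The split over all genes depended on the scaling, with 6159 lower and 1653 higher under library size alone and 4821 and 1436 with limma on log2(RPKM + 0.1), while all 9 members were called lower under both. Together the 9 genes took 0.899 and 1.04% of the reads at E18, and between 0.00102 and 0.00191% in every postnatal sample. All 9 passed the filter on low counts, but Gata1, Ank1, Epb4.2 and Rhag fell below 10 reads in at least 1 adult sample, and these 4 did not pass the filter when P28 and adult samples alone were fitted. The other 5 had at least 10 reads in every sample. In a fit restricted to genes of that kind all 5 were called lower, against 2405 of its 13950 genes. In bulk liver, fewer erythroid cells and less RNA per erythroid cell cannot be told apart.

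Per length, Slc4a1 was the most abundant member at E18. It stood at 1076 and 1289 RPKM, the rank of 34 among all genes by stage mean. Klf1 followed at 278 and 347 RPKM, Rhag at 201 and 228, and Nfe2 at 179 and 245. The remaining 5 genes had means between 91.9 RPKM (Ank1) and 164 RPKM (Tal1). The second E18 sample was the higher for every member, by a TMM-scaled CPM ratio of 1.05 for Tal1 to 1.40 for Nfe2. Over the 13217 genes with at least 100 reads in both, the median absolute log2 difference between these duplicates was 0.16. That value is on a log2 scale and without TMM scaling, so it cannot be set directly beside the ratios.

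**Figure D1:**
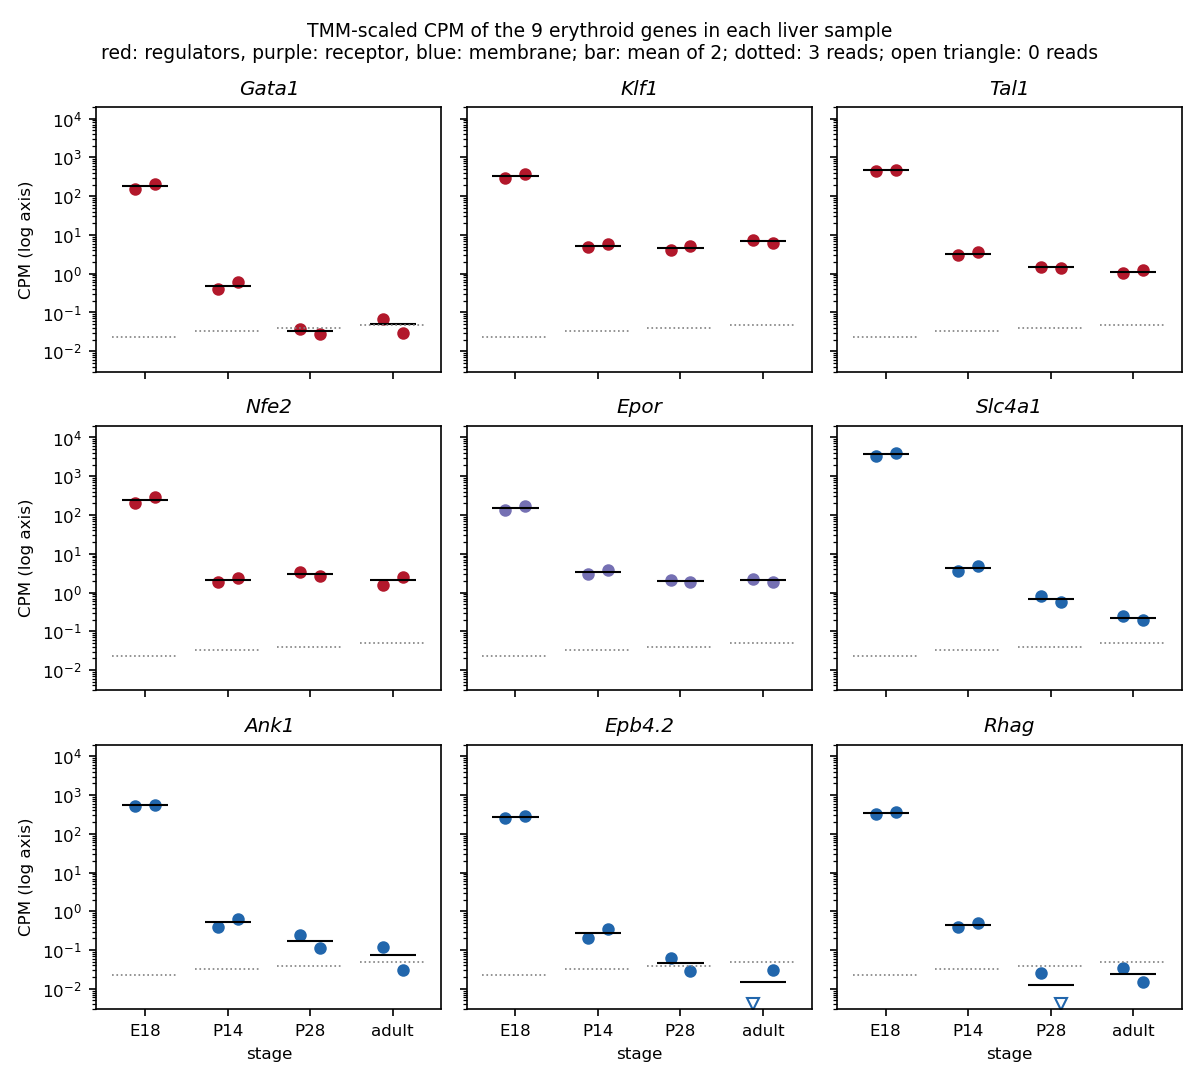
TMM-scaled CPM (log axis) of each of the 9 genes in the 8 liver samples, by stage. Points are samples, black bars are means of 2, dotted lines mark the CPM of 3 reads, and open triangles mark samples with 0 reads. Every gene sits far lower at P14 than at E18, after which Klf1, Nfe2 and Epor stay between 1.58 and 7.53 CPM while Gata1, Epb4.2 and Rhag reach the level of 3 reads.

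Promoter sequences are shown because the 9 genes moved together from E18 to P14 and 3 of them encode factors whose motifs can be read in the letters. The RefSeq table for GRCm38.p6 held a start site for 6 of the 9 genes, that of Epb4.2 under Epb42, and not for Nfe2, Slc4a1 and Ank1, which are named only. The 250 bases before each start were searched on both strands for GATAA, the core of the GATA motif, for CACCC, the core of the Klf motif, and for TGANTCA, the core of the NF-E2 motif. GATAA was present before a start of 5 of the 6 genes (Klf1, Tal1, Epor, Epb4.2 and Rhag) and in 22.6% of the 32851 promoters of the table. CACCC was present in 5 of the 6 (Gata1, Klf1, Tal1, Epor and Rhag) and in 52.0% of all promoters. TGANTCA was in none of the 6 and in 6.75% of all promoters. The gene counts take Tal1 by its first start, whereas the shares are per promoter. Over the 14843 promoters of genes tested here, the shares were 16.4% for GATAA, 58.1% for CACCC and 5.11% for TGANTCA. Below, the Klf1 promoter (chr8:84901732-84901981, plus strand), the Epor promoter (chr9:21963577-21963826, minus strand), the Rhag promoter (chr17:40810899-40811148, plus strand) and, for contrast, the Gata1 promoter (chrX:7967911-7968160, minus strand) are written 5′ to 3′ on the strand of the gene, and capitals mark GATAA and CACCC or their reverse complements TTATC and GGGTG.
Klf1: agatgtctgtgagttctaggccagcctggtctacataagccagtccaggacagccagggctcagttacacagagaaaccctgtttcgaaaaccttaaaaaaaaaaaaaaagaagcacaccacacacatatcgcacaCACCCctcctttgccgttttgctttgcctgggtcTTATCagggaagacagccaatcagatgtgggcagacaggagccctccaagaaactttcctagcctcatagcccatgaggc
Epor: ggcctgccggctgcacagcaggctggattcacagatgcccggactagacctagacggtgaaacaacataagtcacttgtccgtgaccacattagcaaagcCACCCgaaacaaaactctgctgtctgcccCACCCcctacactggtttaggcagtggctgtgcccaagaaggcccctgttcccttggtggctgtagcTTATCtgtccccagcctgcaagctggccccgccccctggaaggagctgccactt
Rhag: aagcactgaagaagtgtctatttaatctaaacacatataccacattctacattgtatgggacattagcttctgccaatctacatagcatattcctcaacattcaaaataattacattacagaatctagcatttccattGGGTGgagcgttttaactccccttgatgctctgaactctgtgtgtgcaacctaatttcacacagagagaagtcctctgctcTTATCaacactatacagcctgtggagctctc
Gata1: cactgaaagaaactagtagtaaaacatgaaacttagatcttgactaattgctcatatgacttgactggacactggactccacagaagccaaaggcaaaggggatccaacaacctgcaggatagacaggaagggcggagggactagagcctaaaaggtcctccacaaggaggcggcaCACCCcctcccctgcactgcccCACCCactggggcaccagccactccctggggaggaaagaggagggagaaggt

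The GATAA match began 31 bases before the start of Rhag, 54 before that of Epor, 80 before that of Klf1, 205 before the first start of Tal1 and 226 before that of Epb4.2. No 2 matches overlapped, and the second start of Tal1 in the table had no match of the 3 motifs. A match describes letters and shows no binding, which was not measured here.

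Among the transcription factors, Gata1 was nearly lost. Gata1 had 21622 and 24692 reads at E18 against 36 and 53 (P14), 3 and 2 (P28) and 4 and 2 (adult). Its CPM fell from 178.8 ± 32.5 (SD, n = 2) at E18 to 0.0494 ± 0.0273 in adult, a log2 fold change of -11.82 (standard error, SE, 0.30, adjusted p by edgeR = 3.3e-09). With 6 adult reads in all, the fold was 3682, with a counting interval from 1691 to 10033. The drop from E18 to P14 was followed by a further drop to P28 (log2 fold change -3.84, adjusted p by edgeR = 0.00032), after which P28 and adult did not differ beyond their spread (adjusted p by edgeR = 0.75).

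Klf1 kept the most. It had 39894 and 45044 reads at E18 against 453 and 506 (P14), 319 and 375 (P28) and 438 and 415 (adult). Its adult CPM of 6.89 ± 0.903 (SD, n = 2) was 2.10% of the E18 mean of 327.8 ± 57.0, and the log2 fold change was -5.57 (SE 0.20, adjusted p by edgeR = 1.5e-08). The 3 postnatal stages lay within a narrow band. P14 and P28 did not differ beyond their spread (adjusted p by edgeR = 0.38), and adult was above P28 by 1.49-fold (adjusted p by edgeR = 0.062), short of 3-fold. That difference missed the FDR threshold without the first P28 sample (adjusted p = 0.32), without the first adult sample (adjusted p = 0.29) and without the second (adjusted p = 0.11).

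Tal1 fell from E18 to P14 and was lower again at P28. Its reads were 63195 and 58489 at E18 against 284 and 316 (P14), 121 and 99 (P28) and 60 and 82 (adult). The log2 fold change from E18 to adult was -8.68 (SE 0.15, adjusted p by edgeR = 1.2e-09), which left 0.243% of the E18 level. The step from P14 to P28 was 2.29-fold (adjusted p by edgeR = 0.00012), below the 3-fold threshold, and the step from P28 to adult did not pass the FDR threshold (adjusted p = 0.15).

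Nfe2 stayed near 1% of its E18 level after birth. It had 27964 and 34585 reads at E18 against 170 and 205 (P14), 268 and 191 (P28) and 92 and 168 (adult). The adult CPM of 2.06 ± 0.671 (SD, n = 2) was 0.849% of the E18 value, a log2 fold change of -6.87 (SE 0.27, adjusted p by edgeR = 2.9e-08). Both P28 samples were above both P14 samples, by 1.45-fold in the fit (adjusted p by edgeR = 0.10), and P14 and adult did not differ beyond their spread (adjusted p = 0.99). The P14 to P28 difference passed an FDR of 0.1 in 9 of the alternatives, among them DESeq2 (adjusted p = 0.031), without reaching 3-fold.

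Epor, the receptor, fell to between 1.27 and 2.16% of its E18 level. Its reads were 18902 and 21380 at E18 against 273 and 334 (P14), 167 and 133 (P28) and 133 and 127 (adult). From E18 to adult its CPM fell from 155.5 ± 27.2 (SD, n = 2) to 2.10 ± 0.264, or 1.35% of the E18 level (log2 fold change -6.21, SE 0.19, adjusted p by edgeR = 7.7e-09). P28 was below P14 by 1.70-fold (adjusted p by edgeR = 0.0071), short of 3-fold, and P28 and adult did not differ beyond their spread (adjusted p = 0.82).

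The 4 membrane genes had the 4 lowest log2 fold changes from E18 to adult, a difference from the other members that was not tested. With limma on log2(RPKM + 0.1), Gata1 (-10.21) was below Epb4.2 (-10.14) and Ank1 (-9.75), so the order did not hold there. Slc4a1 had 458058 and 495870 reads at E18 against 326 and 440 (P14), 66 and 40 (P28) and 14 and 13 (adult). It went down at each of the 3 intervals, by log2 fold changes of -9.76 (adjusted p by edgeR = 1.1e-08), -2.60 (adjusted p = 5.3e-05) and -1.68 (adjusted p = 0.016), and was the only member called in the last interval. The last of these calls was lost without the second adult sample (adjusted p = 0.10), and without the first P28 sample the change no longer passed both thresholds. From E18 to adult its log2 fold change was -14.04 (SE 0.33, adjusted p by edgeR = 2.7e-09), and the fold over the summed reads was 16852 with a counting interval from 11583 to 25572.

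Ank1 had 71243 and 69580 reads at E18 against 36 and 58 (P14), 19 and 8 (P28) and 7 and 2 (adult). Epb4.2 had 36308 and 35915 reads at E18 against 19 and 31 (P14), 5 and 2 (P28) and 0 and 2 (adult). Rhag had 43636 and 44713 reads at E18 against 36 and 45 (P14), 2 and 0 (P28) and 2 and 1 (adult). Epb4.2 and Rhag were at 5 reads or fewer in every sample from P28 on, and Ank1 at 7 or fewer in adult. P14 and adult did not overlap in any of the 3, but the share of all genes that separate in this way was not counted. The folds from E18 to adult were 7463 for Ank1 (counting interval 3931 to 16322), 17225 for Epb4.2 (4768 to 142233) and 14047 for Rhag (4807 to 68117). Their fitted log2 fold changes were -12.84, -13.96 and -13.70 (adjusted p by edgeR = 5.1e-09, 2.5e-09 and 1.5e-09), and depend on the small count that edgeR adds. Without the first adult sample they were -14.06, -13.10 and -14.33, and without the second -12.12, -17.65 and -13.22, each still called. Between P28 and adult the fit gave none of the 3 a difference beyond the spread (adjusted p = 0.24, 0.41 and 0.70), where the depth could show little.

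Ank1 was the 1 member whose place in the genome overlaps other annotated genes. In GENCODE M21 the antisense gene Gm15816 shares 862 exon bases with it. Gm44365 (a miRNA gene) and Gm15815 (a processed pseudogene) overlap Ank1 too and share 0 exon bases with it. Mir486 and Mir3107 lie inside Ank1 on opposite strands and share 0 exon bases with it. The rows named Mir486 and Mir3107 held 4974 and 4962 reads over the E18 samples and 1 and 1 in adult. Counting by strand is not stated, so reads of Ank1 and of Gm15816 cannot be told apart in the shared exon bases. Which transcripts gave the reads on the miRNA rows was not tested.

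By interval, the calls on the 9 genes split after P14. From E18 to P14 all 9 were called lower, against 15.4% of all genes, with log2 fold changes from -5.53 (Epor) to -10.02 (Ank1). From P14 to P28, Gata1, Slc4a1, Epb4.2 and Rhag were called lower, 4 of 9 against 5.98% of all genes, and Ank1 missed the fold threshold at 2.91-fold (adjusted p by edgeR = 0.013). From P28 to adult, 1 of 9 was called, against 2.24% of all genes. Taken from P14 to adult, a comparison added after the data had been seen, 5 of 9 were called lower, against 11.1% of all genes. These were Gata1 and the 4 membrane genes, at log2 fold changes from -2.82 (Ank1, SE 0.52) to -4.28 (Slc4a1, SE 0.29). Klf1 was at 0.37 (SE 0.17), Nfe2 at -0.00 (SE 0.26), Epor at -0.68 (SE 0.18) and Tal1 at -1.54 (SE 0.13). Tal1 missed the fold threshold at 2.92-fold (adjusted p by edgeR = 1.9e-05). Epor passed the FDR threshold alone (1.60-fold, adjusted p by edgeR = 0.010), so the set called depends on the fold threshold. The intervals share the P14 and P28 samples. Limma on log2(RPKM + 0.1), in which values far below 0.1 RPKM are level, called 1 member lower from P14 to P28, 0 from P28 to adult and 1 from P14 to adult. Over all 17081 genes it called 469, 167 and 1001 lower in these comparisons.

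**Figure D2:**
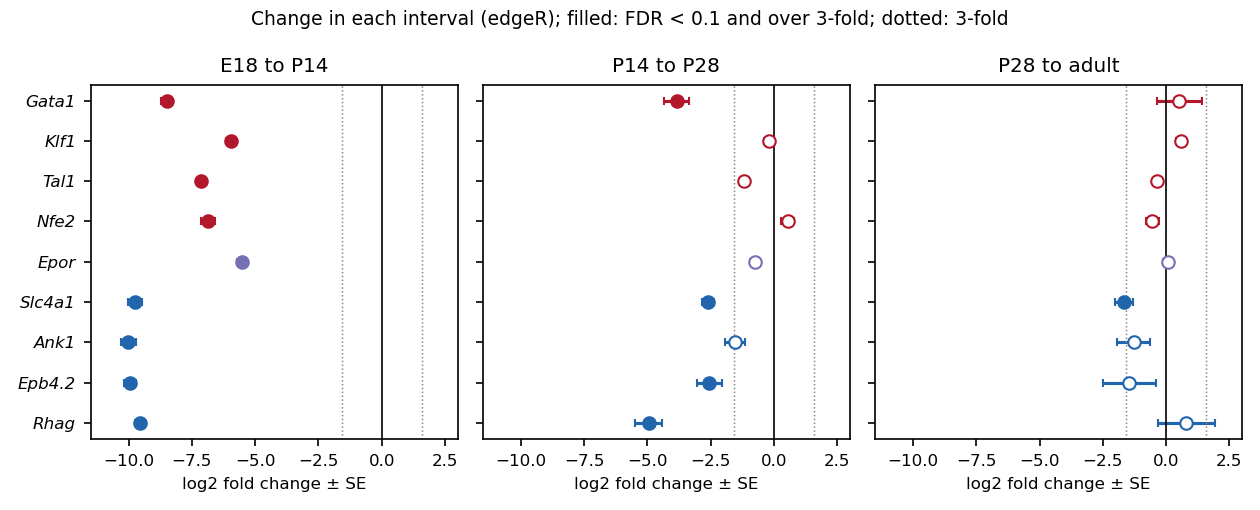
Log2 fold change of each gene, with its SE, in the intervals E18 to P14, P14 to P28 and P28 to adult (edgeR, 2 samples a stage). Filled points passed FDR 0.1 and 3-fold, open points did not. All 9 are filled in the first interval, 4 in the second (Gata1, Slc4a1, Epb4.2 and Rhag) and 1 in the third (Slc4a1).

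The make-up of the erythroid transcripts shifted. Of the summed RPKM of the 9 genes, the 4 membrane genes held 63.3 and 62.1% in the E18 samples, 13.2 and 15.1% (P14), 3.73 and 2.21% (P28) and 1.09 and 0.880% (adult). The 4 regulators held 32.0 and 32.9% at E18, and 82.2 and 84.2% in adult, but not each of them rose. Gata1 fell in share from 5.48 and 5.78% at E18 to 0.509 and 0.238% in adult. Tal1 fell from 6.95 and 5.95% to 3.32 and 4.23%, and Nfe2 rose from 7.67 and 8.78% to 12.7 and 21.6%. Klf1 alone held 11.9 and 12.4% at E18 and 65.7 and 58.1% in adult, and Epor rose in share from 4.73 and 4.95% to 16.7 and 14.9%. The stages did not overlap in the membrane share. The summed level itself was 2335 and 2794 RPKM at E18 against 6.49 and 7.87 (P14), 4.98 and 5.21 (P28) and 5.89 and 5.69 (adult). These are shares of a pool that shrank, and each gene's own level fell.

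**Figure D3:**
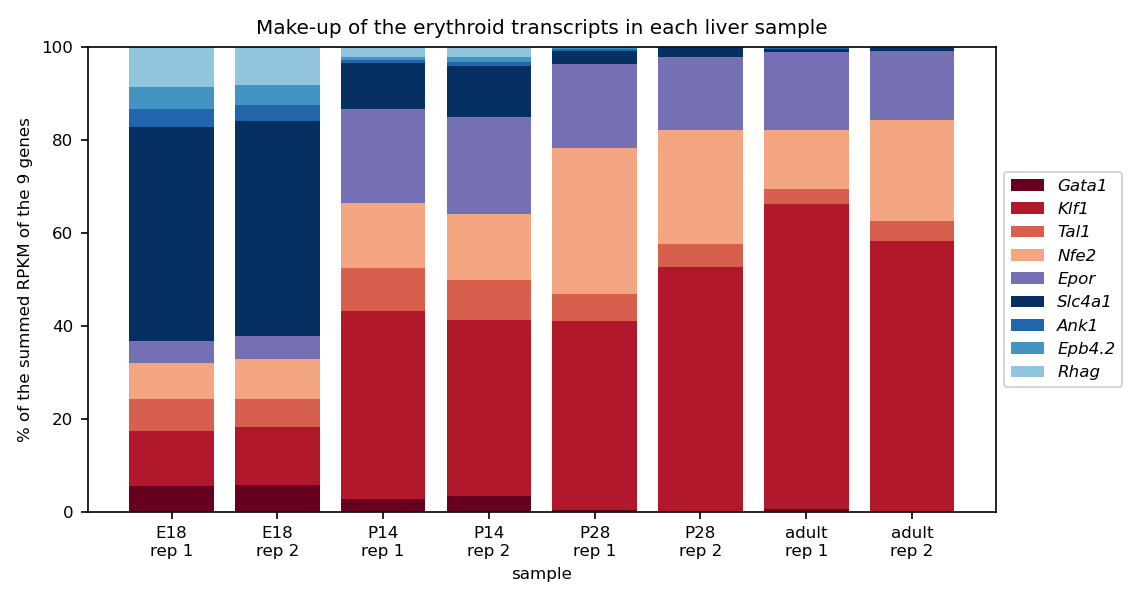
Percent of the summed RPKM of the 9 genes taken by each gene in each of the 8 samples, as stacked bars from 0 to 100%. Membrane genes (blue) hold 62.1 to 63.3% at E18 and 0.880 to 1.09% in adult, where Klf1 holds 58.1 to 65.7%.

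Ratios within a sample restate the same counts in a form that needs no scaling between samples, and are not separate evidence. The RPKM ratio of Slc4a1 to Klf1 was 3.87 and 3.71 at E18 against 0.243 and 0.293 (P14), 0.0698 and 0.0360 (P28) and 0.0108 and 0.0106 (adult). The ratio of Gata1 to Klf1 was 0.460 and 0.465 at E18, 0.0675 and 0.0889 at P14, and 0.00775 and 0.00409 in adult. Both ratios were separate between E18, P14 and adult, in each pair of stages. The Gata1 to Klf1 ratio overlapped between P28 and adult. The ratios are given as a description, with no test. Against beta-globin (Hbb-b1), Slc4a1 had an RPKM ratio of 0.232 and 0.218 at E18 and of 0.00363 and 0.00252 in adult. The reads of Hbb-b1 and Hbb-b2 were nearly identical in every sample, which leaves the level of each beta-globin copy uncertain.

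Most other red-cell membrane genes fell as well. Of 24 further genes (spectrins, adducins, blood-group and transport proteins), 21 were called lower from E18 to adult and 3 were not called, against 23.8% lower over all genes, with a median log2 fold change of -4.84. The blood-group gene Rhd fell from a mean of 363 RPKM to 0.0519 (log2 fold change -11.91, adjusted p by edgeR = 4.7e-09). Bsg (basigin), which is made in many cell types, was the most abundant of the list and missed the fold threshold (log2 fold change -0.62, adjusted p by edgeR = 0.0012). From E18 to P14, 20 of the 24 were called lower (15.4% of all genes), and from P14 to P28 5 were (5.98% of all genes).

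Of 20 further regulators of the lineage, 14 were called lower from E18 to adult and 6 were not called, against 23.8% lower over all genes, with a median log2 fold change of -2.50. Lmo2, the bridge of the Tal1 and Gata1 complex, fell from 155 to 2.87 RPKM (log2 fold change -4.89, adjusted p by edgeR = 1.6e-08), and E2f2, a cell cycle factor of terminal erythroid divisions, from 136 to 0.823 RPKM (-6.50). Zfpm1, the Gata1 partner FOG1, changed less, from 107 to 18.6 RPKM. After TMM scaling its log2 fold change was -1.65, or 3.14-fold (adjusted p by edgeR = 2.4e-07). From E18 to P14, 16 of the 20 were called lower (15.4% of all genes), and from P14 to P28 3 were (5.98% of all genes).

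Genes of the erythropoietin signalling list were called in both directions. Of 18 genes, 8 were called lower, 4 higher and 6 neither from E18 to adult, against 23.8% lower and 16.8% higher over all genes, with a median log2 fold change of -0.38. Tfrc, the transferrin receptor that feeds iron to erythroblasts, fell from 371 to 3.36 RPKM (log2 fold change -5.91, adjusted p by edgeR = 9.7e-07), and Bcl2l1, a survival gene, from 145 to 16.6 RPKM (-2.26). The 4 called higher were Cish (2.94, SE 0.58), Socs2 (2.89, SE 0.59), Tfr2 (2.56, SE 0.10) and Socs3 (1.72, SE 0.56, adjusted p by edgeR = 0.018). Cish, Socs2 and Socs3 are feedback inhibitors of cytokine receptors in general, and their changes were less precise than that of Tfr2. Tfr2 is an iron sensor of hepatocytes as well as erythroblasts. The ligand gene Epo, named after its values were seen, had 102 and 71 reads at E18 against 24 and 26 (P14), 2 and 5 (P28) and 3 and 2 (adult). Its E18 and adult samples did not overlap.

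Paralogs of the members had a median near that of all genes. Of 21 paralogs such as Gata4, Klf15, Slc4a2, Ank3 and Rhbg, 19 passed the filter, and 5 were called lower, 3 higher and 11 neither from E18 to adult, against 23.8% lower and 16.8% higher over all genes, with a median log2 fold change of -0.07 against -0.11 over all genes. Klf9 (5.22), Klf15 (3.92) and Tgm1 (2.24) were the 3 called higher. Tgm2, a transglutaminase related to the protein encoded by Epb4.2, was at 76.1 RPKM at E18 and 39.7 in adult and did not differ beyond its spread after TMM scaling (log2 fold change -0.07, adjusted p by edgeR = 0.66). Nfe2l1, a ubiquitous relative of Nfe2, was at 26.5 and 33.3 RPKM (log2 fold change 1.21, short of 3-fold).

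**Figure D4:**
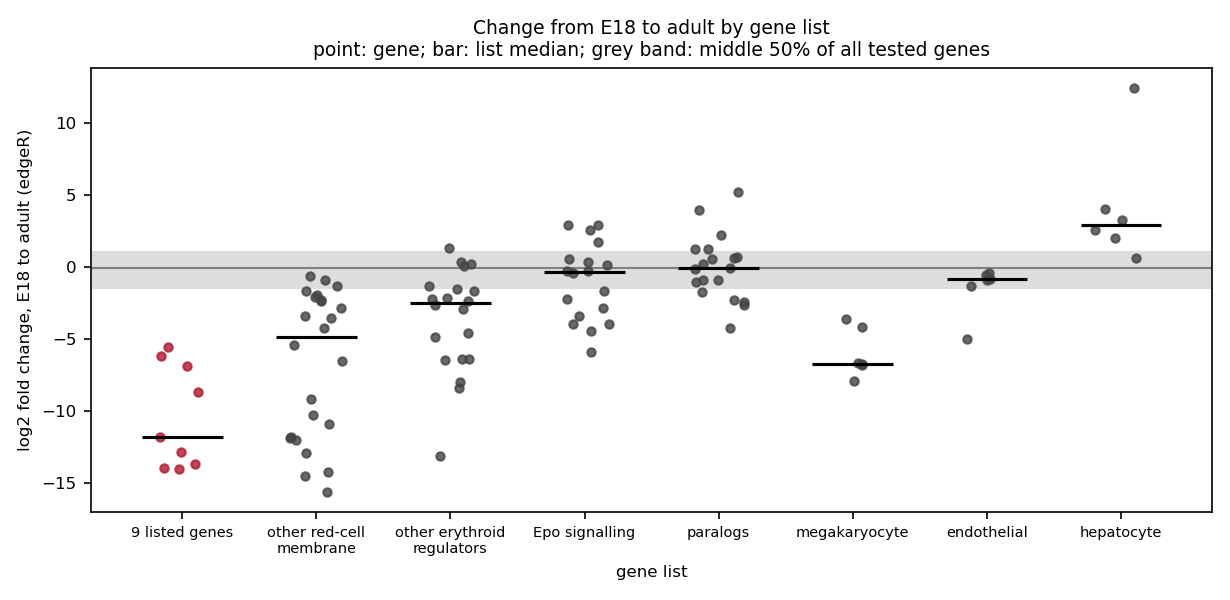
Log2 fold change from E18 to adult (edgeR) of each gene in 8 gene lists. Points are genes, black bars are list medians, and the grey band spans the middle 50% of all 17081 tested genes (-1.49 to 1.00). The 9 erythroid genes lie between -14.04 and -5.57, all below the band, and the paralogs have their median inside it.

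Markers of other cells, some of which use these genes, were counted too. Over all genes, 23.8% were called lower and 16.8% higher from E18 to adult. Gata1, Tal1 and Nfe2 are also made by megakaryocytes, and all 6 megakaryocyte markers were called lower from E18 to adult. They summed to between 278 and 375 RPKM at E18 against 14.6 and 15.7 (P14), 4.14 and 4.18 (P28) and 2.68 and 2.85 (adult), and each had at least 1 read at every stage. All 4 mast cell markers were called lower as well, from a sum between 3.68 and 4.22 RPKM at E18, with Tpsb2 at 0 reads in both adult samples. Tal1 is also made by endothelial cells, whose 6 markers summed to between 71.8 and 83.5 RPKM at E18 and between 14.9 and 16.9 in adult. Of these, 1 of 6 was called lower, against 23.8% of all genes. The sums are without TMM scaling and the calls are after it. Of 5 stem and progenitor markers 3 were called lower and 1 (Hlf) higher, of 6 neutrophil markers 6 were called lower (Camp and Ngp were at 0 reads in adult), of 5 Kupffer cell markers 2 lower and 2 higher, and of 6 hepatocyte markers 5 higher. The red-cell markers Hba-a1, Hba-a2, Hbb-b1, Hbb-b2, Alas2 and Hemgn were all called lower, and their sum went from between 13997 and 17645 RPKM at E18 to between 51.7 and 59.7 in adult. The part of these cells in the levels of the 9 genes was not tested.

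Among 13186 further genes with a mean of at least 1 CPM, the 10 whose course was nearest to the median course of the 9 members were ranked by the root-mean-square difference of centred log2(CPM + 0.1) over the 8 samples. They were Cldn13 (0.270), Rhd (0.335), Gfi1b (0.342), Trim10 (0.395), Epb4.9 (0.409), Slfn14-ps (0.482), Spna1 (0.503), Hif3a (0.526), Cpa1 (0.592) and Cd24a (0.607). Rhd, Gfi1b, Trim10, Epb4.9 and Spna1 were also on the red-cell lists, and Cpa1 is a pancreatic enzyme. The members themselves lay at 0.232 (Gata1) to 1.79 (Klf1) from their median. With a pseudocount of 0.01 the new list of 10 held 5 of these genes, and with 1 it held 3.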

How the data were processed

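The 9 genes and all gene lists were chosen with earlier results of these data known. Reads were mapped by the authors to genome (mm9, per the submitters' processing notes) and transcriptome, and the deposited files give raw read counts per gene symbol and RPKM, the count scaled to transcript length and mapped reads. The aligner and counter are not given in the sources used here, and the labels name Trizol where the methods name RNeasy. Coordinates and overlaps are from GRCm38 and were not joined to the counts by position.

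Counts were filtered with filterByExpr, scaled by TMM and fitted with edgeR (version 4.0.16, glmQLFit and glmQLFTest) with 1 coefficient per stage over all 8 samples. Calls needed a Benjamini-Hochberg FDR below 0.1 over all 17081 genes and a change over 3-fold. The standard error is the log2 fold change over the square root of F. Folds over summed reads have exact conditional Poisson intervals. The fits were tested on simulated data. Alternatives were other filters, scalings and thresholds, DESeq2 (version 1.42.0), limma (version 3.58.1), 2 stages only, a replicate block and each sample left out. Named were all 9 members, and in each list of regulators, signalling, membrane genes and paralogs the 3 genes of highest mean RPKM and those called against its majority (at most 4), except 1 gene that is not reported here. The rule also covered the cell type marker lists, which are given mainly by counts and summed levels. Python 3.11.15, R 4.3.3, scipy 1.17.1, pandas 2.3.3, numpy 2.4.6 and matplotlib 3.10.9 were used. The most similar profiles were ranked among genes with a mean of at least 1 CPM. P14 was compared with adult only once the data were known. Splicing was not analysed here.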

Additional observations from a re-analysis of the deposited data

How the results depend on the processing

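All 9 members were called lower from E18 to adult and from E18 to P14 under every alternative run but 1: at least 10 counts in every sample left 5 members to test, of which 5 were called in both comparisons. That filter gave 1 called member from P14 to P28 and 1 from P14 to adult. Over its 13950 genes it called lower 2405 (E18 to adult), 1357 (E18 to P14), 452 (P14 to P28) and 1106 (P14 to adult). Limma on log2(RPKM + 0.1) gave 1, 1 and, from P28 to adult, 0, against 469, 1001 and 167 of 17081 genes. FDR below 0.1 with no fold threshold gave 7 from P14 to P28, and the share of all genes at that setting was not counted. Leaving out 1 sample at a time gave 4 to 5 members from P14 to P28 and 0 to 1 from P28 to adult, with 0 without the first P28 or the second adult sample. Scaling by library size alone moved the median of all genes from E18 to adult from -0.11 to -0.95, and every member stayed called. Reversed in sign, none past the threshold, were 4 log2 fold changes. From P28 to adult, leaving out 1 sample gave Gata1 -0.13 to 1.02, Epor -0.049 to 0.20 and Rhag -0.053 to 4.22. From P14 to adult, Nfe2 was at 0.033 with median-ratio scaling, 0.019 with library size, 0.029 with DESeq2 and -0.40 to 0.28 with 1 sample left out. The cause was not tested. Deviations of duplicates correlated at -0.11 to 0.08 between stages. With 1 pair of samples at each stage, this cannot settle whether samples of the same number share a batch. With the replicate block 9, 9, 4, 1 and 5 members were called, as without it. The order of the 4 stage means held for 8 of 9 members with library-size CPM, the exception being Nfe2, and the 10 genes most like the members shared 5 with pseudocount 0.01 and 3 with pseudocount 1. After P14, Gata1, Ank1, Epb4.2 and Rhag are limited by depth.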

Other observations

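Red-cell genes outside the 9 differed widely in what was left in adult liver. Alas2, the erythroid form of the first enzyme of heme synthesis, had 157577 and 200610 reads at E18 against 3213 and 2589 (P14), 3956 and 3966 (P28) and 3116 and 3888 (adult). Hemgn, a nuclear protein of erythroid precursors and a target of Gata1, had 80881 and 81759 reads at E18 against 43 and 81 (P14), 6 and 8 (P28) and 0 and 3 (adult). Icam4, a red-cell adhesion protein, had 10885 and 14132 reads at E18 against 34 and 25 (P14), 53 and 52 (P28) and 57 and 70 (adult). The 3 genes were chosen after their values were seen, and no test was made of the difference between them.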
